A study of Mus musculus with 9 samples.

Results

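The cells described here were Nestin-GFP-positive cells sorted from the subventricular zone (SVZ) of adult mice, and they gave 4 of the 9 RNA-seq libraries of the series. The 4 libraries, SVZ 1 to SVZ 4, were taken by their sample titles, and all 14477 genes of the deposited table were used. The other 5 libraries, from the dentate gyrus, were not compared. All 4 SVZ libraries came from the strain B6.Cg-Tg(Nes-EGFP)1Yamm, a C57BL/6 line in which regulatory sequences of the nestin gene drive enhanced green fluorescent protein. The mice were kept under standard housing and received no treatment. Age in weeks, sex and the number of animals behind a library are not given in the labels, which list the 4 as replicates, so the spread reported below is between libraries and may be partly technical. The reporter marks cells in which the transgene was active, and a fluorescent protein can outlast the activity of its promoter, so the gate need not hold stem cells only.

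The SVZ lines the lateral ventricles and is one of the places where neurons are made in the adult rodent brain. Its quiescent stem cells are astrocyte-like, carry glial fibrillary acidic protein, and sit beneath a sheet of multiciliated ependymal cells. Once activated they express the epidermal growth factor receptor, divide as transit-amplifying cells, and yield neuroblasts that express Dlx factors and doublecortin. The neuroblasts migrate to the olfactory bulb and become mainly GABAergic interneurons.

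Depth was even. Recovered library totals ran from 31126803 to 32528255 reads, and 1 read was worth 0.0307 to 0.0321 CPM, the unit in which reads are scaled to the library total. Between 14410 and 14452 genes had at least 1 read in a library, and 14327 had reads in all 4. Levels below are log2 CPM, as deposited, for comparisons of 1 gene between libraries, and CPM per kilobase of merged exons for comparisons between genes. Where 4 values are listed, they stand in the order SVZ 1, SVZ 2, SVZ 3, SVZ 4. With 1 group and 4 libraries no test was made, and every statement on a difference is a description of these libraries.

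Defining markers of the labelled cells were present in every library. All 11 precursor markers were in the table, and their summed level was 1137 to 1349 CPM. The 12 neuroblast markers summed to 19663 to 22909 CPM and the 7 proliferation markers to 3565 to 4147 CPM. Markers of cells outside the neural precursor lineage were also read: 1429 to 2861 CPM for 6 oligodendrocyte markers, 210 to 1078 CPM for 8 microglial markers, and 4.43 to 34.3 CPM for 7 endothelial markers. No marker in the table was at 0 reads in any library, and 2 of 5 choroid plexus markers (Kl and Kcnj13) and 4 of 5 lymphocyte and granulocyte markers were not in it. In bulk samples, fewer cells of a type and less RNA per cell cannot be told apart, which holds for every cell type named below.

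Nes itself, the gene of the intermediate filament nestin whose regulatory sequences drive the reporter (GRCm38 chromosome 3 from 87971078 to 87980451), was at 7.04, 7.39, 7.61 and 6.87 log2 CPM. SVZ 3 was the highest and SVZ 4 the lowest, a 1.67-fold range. Its 23.8 ± 5.53 CPM per kilobase (SD, n = 4) ranked it 2164 among the genes of the table.

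Transcripts of the neuronal cytoskeleton were among the most abundant. Per kilobase, the 10 highest genes were the same 10 in all 4 libraries, and of the 20 highest, 17 were in the top 20 of every library and 23 in that of at least 1. Tuba1a, the alpha-tubulin of newborn neurons (chromosome 15 from 98949837 to 98953703), was at 5813 ± 355 CPM per kilobase. Actb, the cytoplasmic beta-actin, was at 5789 ± 641, and Tubb3, a neuron-specific beta-tubulin used as a marker of young neurons, at 3483 ± 305. Dpysl2, a microtubule-binding protein of growing axons, reached 2066 ± 268 CPM per kilobase. Tubb5, a beta-tubulin of dividing and newborn cells, was the steadiest of the 10, at 2061 ± 30.9. The small actin-binding protein gene Tmsb4x (1856 ± 112) and the translation elongation factor gene Eef1a1 (1681 ± 178) completed the protein-coding nuclear genes among the 10.

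Tubulin genes together took 2.82 ± 0.102% of reads (SD, n = 4). The 10 most read genes took 8.31 ± 0.336% of reads, the 100 most read took 22.9 ± 0.282% and the 1000 most read took 54.9 ± 0.434%. By reads without regard to length, Actb, Tuba1a, Sox11, Ccnd2, Dpysl2, Tubb5, Tubb3, Ncam1, Eif4g2 and Eef1a1 led. Ranked that way, 64 of the 100 genes highest per kilobase stayed among the first 100.

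**Figure D1:**
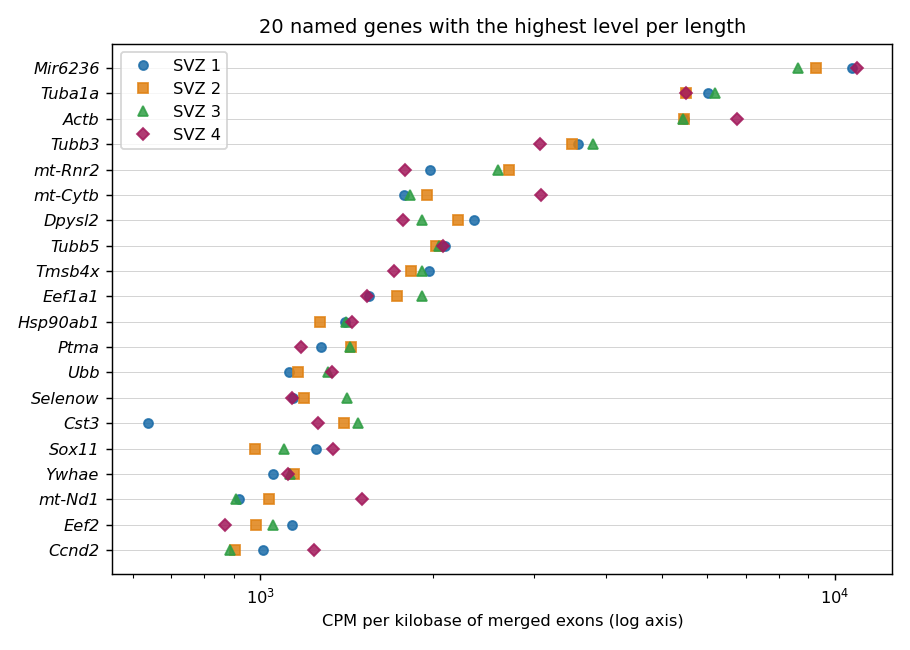
CPM per kilobase of merged exons (log axis) in each SVZ library for the 20 named genes with the highest mean. Points are single libraries. Tubb5 varied least among the first 10 (SD 30.9 CPM per kilobase), while Cst3 had 1 low point, in SVZ 1.

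The highest value per kilobase, 9899 ± 1107, belonged to Mir6236, a microRNA gene with an annotated length of 123 bases (chromosome 9 from 110281287 to 110281409). Its 4 libraries were at 10.36, 10.16, 10.06 and 10.39 log2 CPM. By reads it ranked 64, so its first place rests on the short length. Since the libraries were made from sheared, poly-dT-primed cDNA, this value is not a level of the mature microRNA. The mature sequence in the RefSeq table (GRCm38.p6, chr9:110281353-110281371, plus strand, 19 bases) is shown with its seed, bases 2 to 8, in capitals because this entry heads the ranking.
mmu-miR-6236: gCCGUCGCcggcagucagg

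Mitochondrially encoded genes took 1.06 ± 0.126% of reads. The mitochondrial 16S ribosomal RNA gene mt-Rnr2 (2266 ± 454 CPM per kilobase) and the cytochrome b gene mt-Cytb (2160 ± 617) were both among the 10 highest. They did not vary in the same way: mt-Rnr2 was at 11.61, 12.07, 12.00 and 11.47 log2 CPM, with SVZ 2 and SVZ 3 high, while mt-Cytb was at 10.99, 11.13, 11.03 and 11.78, with SVZ 4 alone high. Of the 9 mitochondrially encoded genes in the table, 7 were highest in SVZ 4, where 36% of all genes were.

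Genes of neuroblasts stood higher per kilobase than those of any other cell type or lineage list. The list counts Tuba1a, Tubb3 and Dpysl2 among its members. The 39 measured neuroblast genes had a median of 141 CPM per kilobase, and their median gene lay above 98.1% of the table. All 39 had a mean of at least 3 log2 CPM. Sox11, a transcription factor of committed neuroblasts, ranked 17 per kilobase at 13.34, 12.99, 13.16 and 13.44 log2 CPM. Stmn1, which destabilises microtubules, was at 10.48, 10.57, 10.66 and 10.61, and Ncam1, the adhesion molecule that carries polysialic acid on migrating neuroblasts, at 12.68, 12.30, 12.44 and 12.18. Dcx, the microtubule-associated doublecortin, was at 10.45, 9.74, 9.95 and 10.55, higher in SVZ 1 and SVZ 4 than in SVZ 2 and SVZ 3. Per kilobase Dcx came only to 93.7 ± 24.7, since its merged exons span 12647 bases.

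Factors of the ventral, GABAergic lineage were the next group in role. The 31 measured genes had a median of 12.2 CPM per kilobase, above 73.4% of the table. Dlx6os1, a long non-coding RNA of the Dlx5 and Dlx6 locus, ranked 64 per kilobase and 33 by reads, at 11.22, 10.92, 11.01 and 10.79 log2 CPM; its exons overlap other entries of the annotation, and the library kit does not mark the strand. Sp8, a zinc finger factor of olfactory interneurons, ranked 184 at 9.86, 9.63, 9.58 and 9.88. Among the Dlx homeobox genes, Dlx5 (146 CPM per kilobase) and Dlx1 (93.5) lay above Dlx2 (30.2) and Dlx6 (3.96). The GABA-synthesising enzyme genes Gad2 and Gad1 were at 47.5 and 31.4 CPM per kilobase, whereas Slc32a1, the vesicular GABA transporter, was at 1.15. By contrast the 19 dorsal and glutamatergic genes had a median of 1.24 CPM per kilobase, above 26% of the table. Most of them were low, with Eomes at 1.24, Neurod2 at 0.418, Tbr1 at 0.229 and Emx1 at 0.195, and the exceptions Prox1 and Mex3a were at 27.0 and 58.5.

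Genes of activated precursors and of the cell cycle were prominent. Ccnd2, a D-type cyclin that drives entry into the cycle, was at 13.22, 13.05, 13.02 and 13.51 log2 CPM and ranked 21 per kilobase. The epidermal growth factor receptor gene Egfr was at 7.68, 7.51, 7.46 and 7.31, lowest in SVZ 4 and highest in SVZ 1. The 36 S phase genes had a median of 29.5 CPM per kilobase and the 45 genes of G2 and mitosis a median of 35.5. Rrm2, a subunit of ribonucleotide reductase, led the former at 428 CPM per kilobase, and Pbk, a mitotic kinase, led the latter at 186. Mki67, the classical marker of cycling cells, was at 8.83, 8.24, 8.22 and 8.70 log2 CPM.

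Genes of stem cells spanned a wide range of levels. Of 25 measured neural stem and precursor genes, 18 had a mean of at least 3 log2 CPM and none of those differed 2-fold between libraries. Nfia, Nfib and Nfix, transcription factors of glial and stem cell fate, were the highest at 145, 144 and 131 CPM per kilobase. Sox2, required for stem cell maintenance, was at 6.40, 6.09, 6.14 and 6.14 log2 CPM, and Sox9 at 7.15, 7.08, 7.06 and 7.12. The Notch effectors Hes5 and Hes1 were low, at 1.27 and 0.701 CPM per kilobase. In the astroglial and quiescent stem cell list, Clu, a secreted chaperone, was the highest at 373 CPM per kilobase, and the glutamate transporter gene Slc1a3 was at 115. Gfap was at 5.40, 6.05, 5.84 and 4.73 log2 CPM, a 2.5-fold range in which SVZ 4 was the lowest, and Hopx, a marker of quiescent stem cells in other niches, was at 0.344 CPM per kilobase.

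Between libraries, the levels of most genes differed by little but by more than read counting alone gives. The 9399 genes that averaged 3 log2 CPM or more held 98.4% of all reads, and the statements on spread rest on them. Their median SD over the 4 libraries was 0.195 log2 units, with 0.0741 at the 10th and 0.455 at the 90th percentile. Counting error alone gives a median SD of 0.0398, and the observed SD exceeded its counting value in 98.6% of genes, by a median factor of 5.02. PCR copies were not tagged, so this counting value is a lower limit of the technical error. A gene is called variable below when its highest and lowest library differed at least 2-fold. There were 948 variable genes, 10.1% of the 9399, of which 76 differed at least 4-fold and 5 at least 8-fold.

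**Figure D2:**
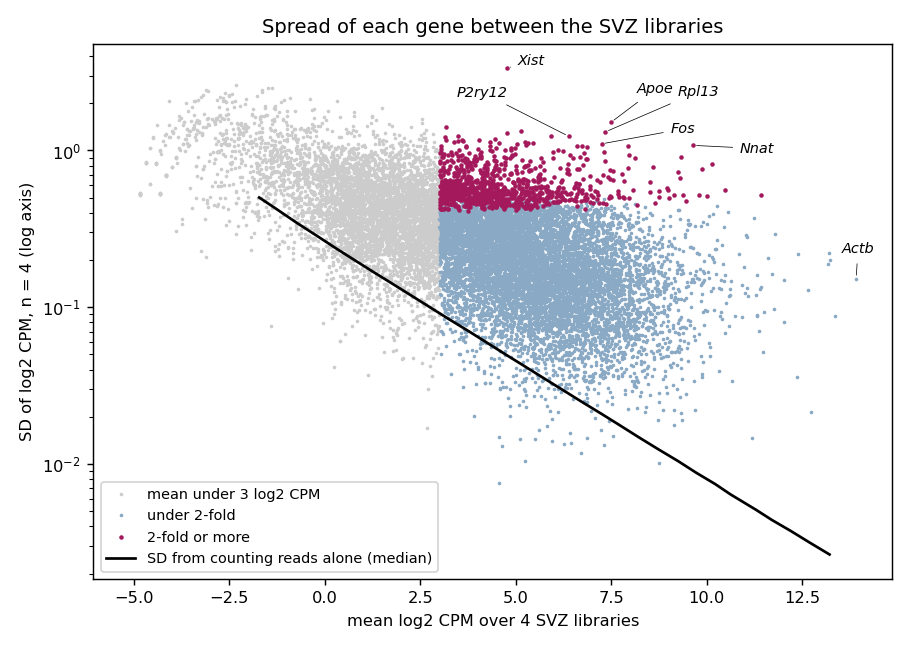
SD of log2 CPM over the 4 SVZ libraries (log axis) against the mean log2 CPM, 1 point per gene. Grey points lie under the mean of 3 log2 CPM, purple points are the 948 variable genes, and the black line is the median SD that counting reads alone would give; most points lie above it.

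The smallest SDs among genes that averaged 5 log2 CPM or more were near 0.01 log2 units. Rbx1, the ring finger subunit of cullin ubiquitin ligases, was at 8.77, 8.75, 8.75 and 8.75 log2 CPM. Lsm8, a component of the spliceosomal U6 particle, was at 6.72, 6.74, 6.71 and 6.72, and Coq7, an enzyme of ubiquinone synthesis, at 5.94, 5.95, 5.92 and 5.94. Bckdk, Kxd1, Mia3, Zswim1 and Klhl18 had SDs of 0.0105 to 0.0144.

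Each variable gene was placed by the largest gap between its 4 ordered values, which sets apart either 1 library or a pair of libraries. SVZ 4 stood alone in more of them than any other library: it was the low library in 252 variable genes (2.68% of the 9399) and the high one in 209 (2.22%). SVZ 1 was low in 142 (1.51%) and high in 17 (0.181%). SVZ 2 was high in 38 (0.404%) and low in 33 (0.351%), and SVZ 3 high in 20 (0.213%) and low in 10 (0.106%). Of the 2-against-2 splits, SVZ 2 and SVZ 3 over SVZ 1 and SVZ 4 held 108 genes (1.15%) and the opposite held 92 (0.979%), while 10 genes (0.106%) were higher in SVZ 1 and SVZ 3, 8 (0.0851%) in SVZ 3 and SVZ 4, 7 (0.0745%) in SVZ 2 and SVZ 4, and 2 (0.0213%) in SVZ 1 and SVZ 2. SVZ 4 held 40.7% of the squared deviation from the gene means, against 17.5% to 21.6% for each other library.

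Pairs of libraries ranked accordingly. SVZ 2 and SVZ 3 were closest, with Pearson's r of 0.985 across the 14477 genes and 22 genes differing 2-fold, and SVZ 2 and SVZ 4 were farthest by that count, with 578. In a decomposition of the deviations into components, the first (62.4% of the variance) placed SVZ 2 and SVZ 3 on one side and SVZ 4 on the other, and the second (26.1%) set SVZ 1 apart. The counts of every pair differed by more than sampling noise, with chi-square values 19.4 to 91.3 times their degrees of freedom, so all 4 were kept as separate libraries. Without SVZ 4 the count of variable genes was 303.

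Genes of microglia, the resident macrophages of the brain, shared their lowest library. All 29 measured microglial genes were lowest in SVZ 1, where 24.7% of all genes were lowest, and 22 were highest in SVZ 4. Of the 26 that averaged 3 log2 CPM or more, every one was variable, and 24 had SVZ 1 as the low library. The list mean was 3.51, 4.87, 5.33 and 5.67 log2 CPM. Without SVZ 1 its range fell from 2.16 to 0.806.

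Receptors of the list showed the pattern at several levels. Cx3cr1, the fractalkine receptor (chromosome 9 from 119901616 to 120069879), was at 5.40, 6.68, 6.88 and 8.02 log2 CPM. P2ry12, the ADP receptor of resting microglia, was at 4.84, 6.17, 6.74 and 7.80, and Csf1r, the receptor for the survival factor CSF1, at 5.98, 7.27, 7.82 and 8.23. In these 3 genes the order was the same, SVZ 1 lowest and SVZ 4 highest. Cx3cr1 and P2ry12 share exon sequence with genes on the opposite strand, whose reads cannot be told apart here. Other members ordered SVZ 2 to SVZ 4 differently: Tmem119 was at 1.82, 3.81, 4.42 and 3.92, and the complement gene C1qb at 5.07, 6.60, 7.09 and 6.97. Ctss, which encodes the lysosomal protease cathepsin S, was at 5.39, 6.82, 7.46 and 7.76. Cst3, the cystatin C gene and the most abundant of the list at 1195 CPM per kilobase, was at 9.66, 10.79, 10.87 and 10.64, although astroglia also express it. Outside the list, the endotoxin co-receptor gene Cd14 was at 1.73, 3.57, 4.11 and 4.57 and the phagocyte perforin gene Mpeg1 at 1.86, 2.39, 3.37 and 5.09.

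Macrophages of the brain's borders did not follow the microglial order. None of their 10 measured genes reached a mean of 3 log2 CPM, and the list mean was -0.19, 0.90, -0.98 and 0.42. The mannose receptor gene Mrc1 was at 1.59, 2.59, 0.72 and 2.74 log2 CPM, with SVZ 2 and SVZ 4 high.

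The transcription factor PU.1, which is central to microglial identity, binds purine-rich sites. A site of the letters GAGGAAGT, searched on both strands, was found within 250 bases before to 50 bases after an annotated start in 3 of the 21 microglial genes with a RefSeq promoter (14.3%), against 3.38% of the 10834 genes of the table that had one. All 3 (C1qc, Cd53 and Ctss) were among the variable genes with SVZ 1 low, but so were 16 of the 21 genes. The promoter of Ctss (GRCm38.p6, chr3:95526536-95526835, plus strand) is printed to show where the match lies, in capitals, close to the start. A match of letters is a description and not evidence of binding, here and for the promoters below.
Ctss: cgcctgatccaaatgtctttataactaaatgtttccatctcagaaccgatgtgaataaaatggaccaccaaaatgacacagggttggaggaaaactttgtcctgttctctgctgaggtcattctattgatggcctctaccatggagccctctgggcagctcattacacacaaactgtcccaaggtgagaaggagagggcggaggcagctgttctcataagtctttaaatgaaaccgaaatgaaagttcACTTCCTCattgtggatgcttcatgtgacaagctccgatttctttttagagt

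**Figure D3:**
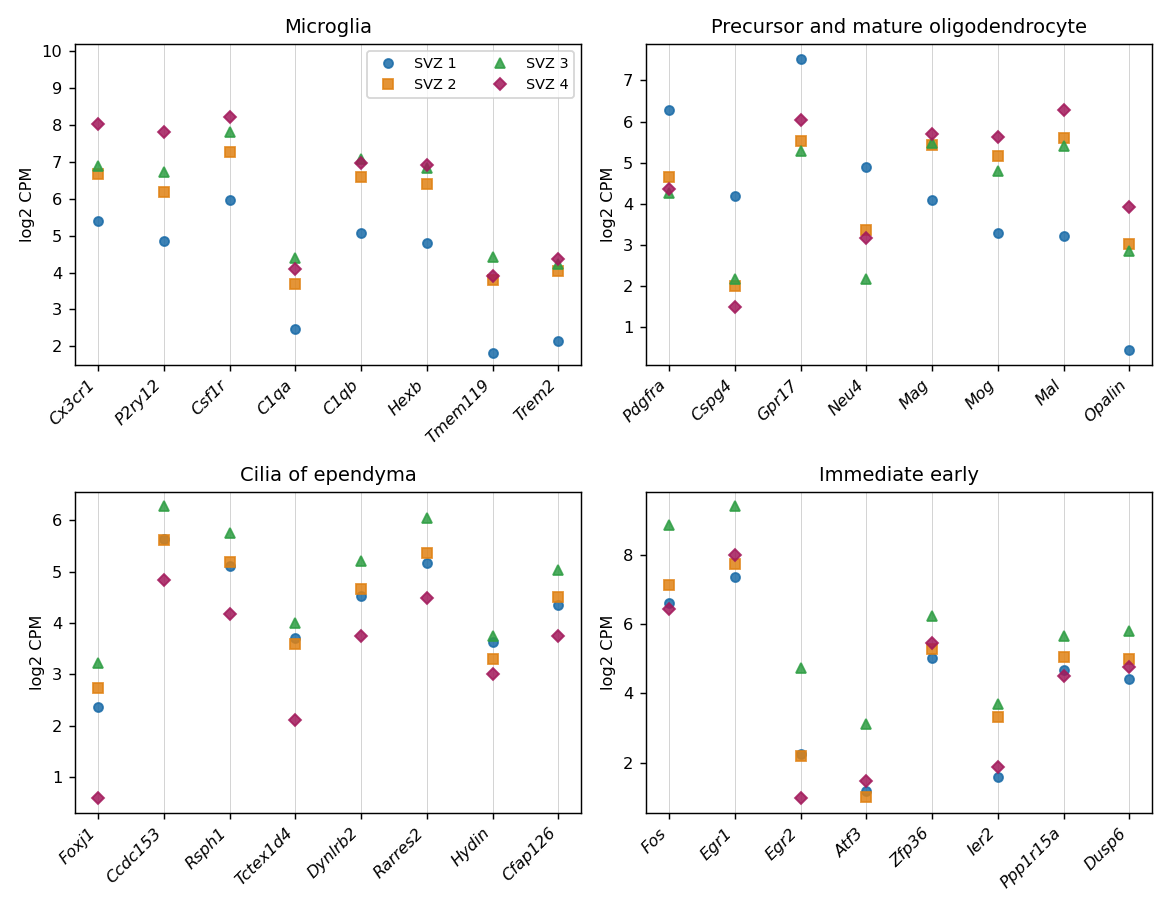
Log2 CPM in each SVZ library for members of 4 lists, points being single libraries. Among the genes shown, SVZ 1 is the lowest for 8 microglial and 4 myelin genes and the highest for 4 oligodendrocyte precursor genes. SVZ 4 is the lowest for the 8 ependymal genes shown and SVZ 3 the highest for the 8 immediate early genes shown. The genes are chosen examples, and other members differ. Over the whole lists, 11 of 22 oligodendrocyte precursor genes were highest in SVZ 1 (19.2% of all genes were). Of 24 myelinating genes, 17 were lowest there (24.7% of all genes were). Of 34 immediate early genes, 22 were highest in SVZ 3 (20.1% of all genes were).

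Oligodendrocyte genes split by stage of maturation. Of 22 measured precursor genes, 11 were highest in SVZ 1 (19.2% of all genes were), and of the 11 that averaged 3 log2 CPM or more the 3 variable ones all had SVZ 1 as the high library. Of 24 measured genes of myelinating oligodendrocytes, 17 were lowest in SVZ 1 (24.7% of all genes were), and 8 of their 11 variable members had SVZ 1 as the low library. Without SVZ 1 the range of the list mean fell from 0.853 to 0.323 for the precursors and from 1.15 to 0.496 for the myelinating cells.

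Pdgfra, the growth factor receptor that defines oligodendrocyte precursors (chromosome 5 from 75152292 to 75198215), was at 6.27, 4.64, 4.27 and 4.37 log2 CPM. Gpr17, a receptor of precursors that have begun to differentiate, was at 7.53, 5.52, 5.28 and 6.05, and the sialidase gene Neu4 at 4.90, 3.36, 2.16 and 3.16. SVZ 1 was the highest library in each of them, as it was in 19.2% of all genes. Cspg4, the NG2 proteoglycan gene shared by these precursors and pericytes, was at 4.18, 2.00, 2.16 and 1.48. The lineage factors Olig2 and Sox10 did not share the pattern, being highest in SVZ 4 (1.21, 1.36, 1.04 and 2.07 for Olig2 and 1.38, 0.94, 1.51 and 1.88 for Sox10). Enpp6, a marker of newly formed oligodendrocytes, was high in both SVZ 1 and SVZ 4, at 4.64, 3.26, 2.39 and 4.50.

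Among the myelin genes, Mal, a membrane proteolipid of myelin, was at 3.22, 5.60, 5.41 and 6.27 log2 CPM, Mog at 3.29, 5.16, 4.80 and 5.61, and Opalin at 0.43, 3.01, 2.85 and 3.93. These 3 genes were lowest in SVZ 1 and highest in SVZ 4. Mbp, which encodes myelin basic protein, did not share that order, at 9.53, 10.48, 9.92 and 9.28, with SVZ 2 high and SVZ 4 lowest. Per kilobase Mbp was at 111 CPM.

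Vascular genes were set apart by SVZ 1 in their list means. Of 32 measured endothelial genes, 26 were highest in SVZ 1 (19.2% of all genes were), and the list mean was 2.38, 0.75, 0.84 and 0.82 log2 CPM. Most were low: only 5 had a mean of at least 3 log2 CPM, and of those, all variable, Itm2a alone had SVZ 1 as the high library while Slco1c1 had it as the low one and Slc2a1, Bsg and Pltp, which other cells also express, had SVZ 4 as the low one. Cldn5, the tight junction claudin of brain endothelium, had 78, 18, 22 and 7 reads, and Flt1, a receptor for vascular endothelial growth factor, had 181, 22, 29 and 44. Ly6c1 was at 3.68, 0.28, 0.34 and 0.68 log2 CPM. Without SVZ 1 the range of the list mean fell from 1.63 to 0.0936. The summed level of the list did not set SVZ 1 apart. It was 555, 541, 569 and 292 CPM, with SVZ 4 the lowest.

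Mural genes gave a partly similar picture. Of 21 measured pericyte and smooth muscle genes, 14 were highest in SVZ 1 (19.2% of all genes were) and 8 lowest in SVZ 4 (28.4% were). Of the 7 that averaged 3 log2 CPM or more, 4 were variable, 2 with SVZ 1 high and 2 with SVZ 4 low. Rgs5, a regulator of G protein signalling typical of pericytes, was at 4.97, 2.75, 3.34 and 2.96 log2 CPM, and Myh11, the smooth muscle myosin gene, had 231, 22, 22 and 24 reads. Pdgfrb, the receptor that defines pericytes, was nearly level at 4.48, 4.26, 4.62 and 4.51.

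SVZ 1 was also the highest library for 20 of 32 interferon response genes, as it was for 19.2% of all genes. The list mean was 2.80, 2.28, 2.23 and 1.93 log2 CPM. Of the 12 members that averaged 3 log2 CPM or more, 4 were variable, against 10.1% of all such genes. Among the 4, Usp18, a protease that removes the ISG15 tag, was at 4.89, 2.98, 2.16 and 2.54, and Oasl2 at 4.47, 2.77, 2.87 and 3.03. The other pair differed otherwise: the class I histocompatibility gene H2-D1 was at 4.97, 6.12, 6.16 and 3.87, and Ifitm3 at 4.82, 4.79, 5.33 and 3.96. The summed endothelial markers beside them were 34.3, 4.43, 5.86 and 7.22 CPM, and their part in the interferon values was not tested.

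Astroglial genes were lowest in SVZ 1 as well. Of 35 measured, 25 were lowest there (24.7% of all genes were). Of the 32 that averaged 3 log2 CPM or more, 13 were variable, against 10.1% of all such genes. In 8 of the 13 SVZ 1 was the low library. Of all genes that averaged 3 log2 CPM or more, 1.51% were variable with SVZ 1 low. Aldoc, the brain aldolase, was at 8.17, 9.72, 9.54 and 9.57 log2 CPM, and Gja1, the gap junction protein connexin 43, at 8.28, 9.37, 9.22 and 9.17. SVZ 2 to SVZ 4 lay close together in both genes, and SVZ 1 stood apart below them. Another 4, among them the metallothionein genes Mt1 (7.07, 7.93, 8.27 and 7.43) and Mt3 (6.38, 7.15, 7.69 and 6.54), were higher in SVZ 2 and SVZ 3. Apoe, the apolipoprotein of astrocytes and activated microglia, had one of the largest spreads of all, at 6.07, 9.34, 8.10 and 6.47, a 9.66-fold range.

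Ependymal genes were set apart by SVZ 4. Of 45 measured genes, many of them encoding parts of motile cilia, 44 were lowest in SVZ 4 (28.4% of all genes were) and 36 were highest in SVZ 3 (20.1% of all genes were). Of the 31 that averaged 3 log2 CPM or more, 21 were variable, 18 of them with SVZ 4 low. The list mean was 3.76, 3.62, 4.06 and 2.78 log2 CPM, and its range fell from 1.28 to 0.445 without SVZ 4.

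Foxj1, the transcription factor that switches on the motile cilia program (chromosome 11 from 116330704 to 116335399), was at 2.36, 2.73, 3.22 and 0.59 log2 CPM, from 163, 206, 294 and 48 reads. Dynlrb2, a light chain of cytoplasmic and ciliary dynein, was at 4.53, 4.66, 5.22 and 3.74, Ccdc153 at 5.64, 5.61, 6.27 and 4.83, and the radial spoke gene Rsph1 at 5.11, 5.18, 5.76 and 4.18. SVZ 1 and SVZ 2 lay close together in each, with SVZ 3 above and SVZ 4 below. The axonemal dynein genes were low and less regular, Dnah11 being the single member not lowest in SVZ 4 (3.60, 3.22, 3.54 and 3.40). Choroid plexus genes, from the other ciliated epithelium of the ventricles, were also lowest in SVZ 4 by list mean (1.49, 1.56, 1.61 and 0.52), with 5 of 8 members lowest there. Enpp2, the single member above a mean of 3 log2 CPM, ran the other way at 6.89, 7.06, 7.05 and 7.42, so that the summed level of the list was highest in SVZ 4 (134, 149, 156 and 181 CPM). The transthyretin gene Ttr had 84, 53, 96 and 47 reads.

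Regulatory factor X proteins drive cilia genes together with Foxj1 and bind the X-box. An X-box was found in 6 of the 38 ependymal genes with a promoter (15.8%), against 2.1% of all genes with one. Of the 15 variable members with SVZ 4 low that had a promoter, 2 held it (13.3%), near the share of the whole list. The promoter of Dynlrb2 (chr8:116504765-116505064, plus strand) holds the match in capitals.
Dynlrb2: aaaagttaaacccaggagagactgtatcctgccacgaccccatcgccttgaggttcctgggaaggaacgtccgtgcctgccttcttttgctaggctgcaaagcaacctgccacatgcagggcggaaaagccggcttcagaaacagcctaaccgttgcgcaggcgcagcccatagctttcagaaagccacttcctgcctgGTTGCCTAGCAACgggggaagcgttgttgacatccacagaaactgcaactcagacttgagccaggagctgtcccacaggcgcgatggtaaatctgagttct

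Immediate early genes, which are transcribed within minutes of a stimulus and also during tissue dissociation, were set apart by SVZ 3. Of 34 measured, 22 were highest in SVZ 3 (20.1% of all genes were). Of the 16 that averaged 3 log2 CPM or more, 7 were variable, against 10.1% of all such genes. In 6 of the 7 SVZ 3 was the high library, against 2.11% of all variable genes. The list mean was 3.07, 3.07, 3.80 and 3.01 log2 CPM, with a range of 0.788 that fell to 0.0659 without SVZ 3. No sampling or dissociation time is given in the labels, so its part was not tested.

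Fos, a subunit of the AP-1 transcription factor (chromosome 12 from 85473890 to 85477273), was at 6.61, 7.12, 8.85 and 6.44 log2 CPM, a 5.32-fold range. Egr1, a zinc finger factor, was at 7.35, 7.73, 9.39 and 7.996, and its relative Egr2 at 2.26, 2.20, 4.74 and 0.98. SVZ 3 exceeded the next library by a factor of 3.32 in Fos and 2.63 in Egr1. Genes of the negative feedback that follows were higher too: Zfp36, which destabilises messenger RNAs, was at 5.01, 5.29, 6.23 and 5.46, the phosphatase gene Dusp6 at 4.40, 4.99, 5.80 and 4.76, and Ppp1r15a, a phosphatase subunit of the stress response, at 4.68, 5.05, 5.64 and 4.50. Other members were not set apart by SVZ 3: Jun was at 4.64, 4.66, 4.90 and 5.05, Nr4a1 at 2.56, 2.13, 2.47 and 1.51, and Klf10 at 5.84, 5.60, 5.82 and 5.86.

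Cyclic AMP and serum response signals reach such genes through the CRE and the CArG box. The core TGACG of the CRE, which the full CRE, TGACGTCA, contains on both strands, was searched on both strands and was found in 13 of 25 immediate early genes with a promoter (52%) against 34.4% of all genes, and the CArG box in 2 of 25 (8%) against 1.52%. Of the 5 variable members with SVZ 3 high that had a promoter, 2 held the core (40%, near the 34.4% of all genes) and 1 the CArG box. A tie of either motif to the SVZ 3 pattern was not tested. The promoters of these 3 genes are printed to show where the matches lie. CRE cores are in capitals in Fos (chr12:85473640-85473939, plus strand) and Ppp1r15a (chr7:45526219-45526518, minus strand), where overlapping cores form a full CRE. The CArG box is in capitals in Zfp36 (chr7:28379179-28379478, minus strand).
Fos: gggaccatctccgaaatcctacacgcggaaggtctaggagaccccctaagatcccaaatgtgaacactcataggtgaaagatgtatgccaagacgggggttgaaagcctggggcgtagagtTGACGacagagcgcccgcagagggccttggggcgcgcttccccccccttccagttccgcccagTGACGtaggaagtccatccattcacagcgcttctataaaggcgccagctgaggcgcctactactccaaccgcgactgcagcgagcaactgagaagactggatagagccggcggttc
Ppp1r15a: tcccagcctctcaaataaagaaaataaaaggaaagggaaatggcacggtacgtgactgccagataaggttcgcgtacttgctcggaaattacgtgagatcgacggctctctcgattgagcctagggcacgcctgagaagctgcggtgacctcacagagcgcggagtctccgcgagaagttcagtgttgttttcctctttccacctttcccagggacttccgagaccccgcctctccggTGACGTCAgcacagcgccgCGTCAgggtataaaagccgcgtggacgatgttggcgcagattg
Zfp36: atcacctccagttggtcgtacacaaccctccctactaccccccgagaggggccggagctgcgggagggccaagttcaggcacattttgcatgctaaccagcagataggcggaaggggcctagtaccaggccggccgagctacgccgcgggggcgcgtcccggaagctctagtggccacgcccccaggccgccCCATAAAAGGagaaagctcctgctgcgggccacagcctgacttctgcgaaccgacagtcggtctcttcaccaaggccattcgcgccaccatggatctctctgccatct

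**Figure D4:**
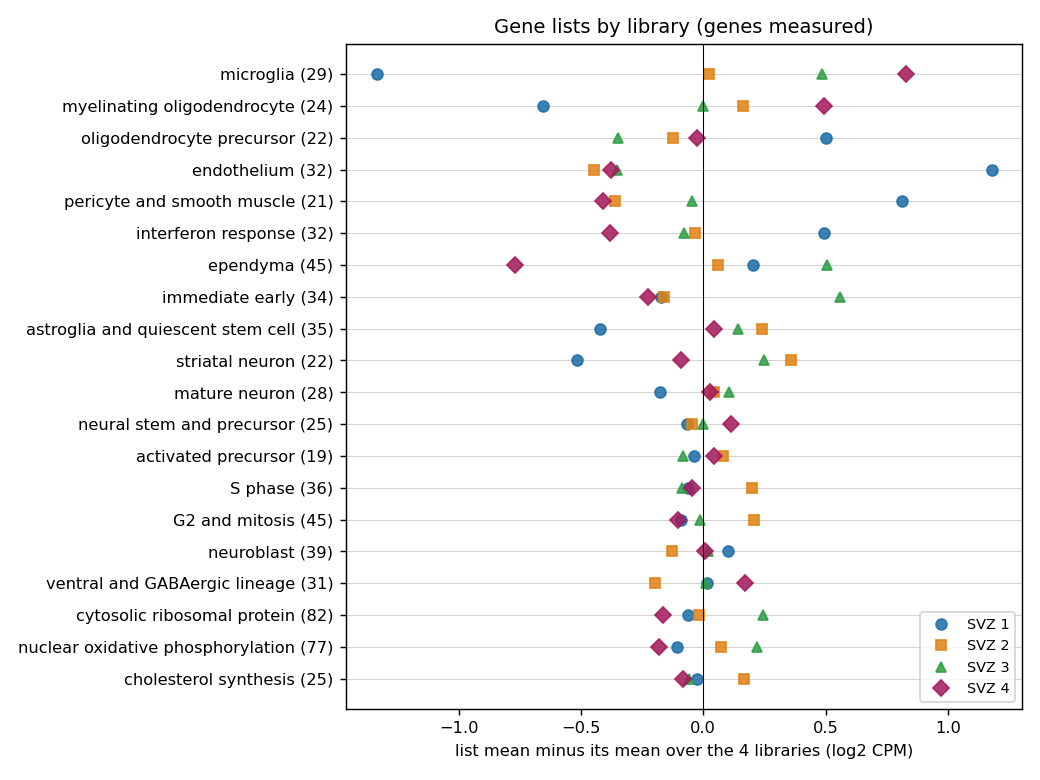
Mean log2 CPM of 20 gene lists in each SVZ library, as the difference from the list's own mean over the 4 libraries, with the number of measured genes in parentheses. Microglial, myelinating, oligodendrocyte precursor, vascular and interferon lists are set apart by SVZ 1, the ependymal list by SVZ 4 and the immediate early list by SVZ 3. The lists of neural stem and precursor genes, activated precursors, neuroblasts and the ventral lineage have ranges of at most 0.366 log2 units. The astroglial and quiescent stem cell list has a range of 0.664, with SVZ 1 lowest.

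The list means of the neurogenic lineage moved less than those of the microglial, vascular and ependymal lists. How much single members varied differed between the neurogenic lists. The range of the list mean was 0.181 for neural stem and precursor genes, 0.163 for activated precursors, 0.231 for neuroblasts and 0.366 for ventral and GABAergic genes. Of the members that averaged 3 log2 CPM or more, 0 of 18 stem and precursor genes, 2 of 15 activated precursor genes, 5 of 39 neuroblast genes and 5 of 24 ventral genes were variable, against 10.1% of all genes. Their median SDs were 0.192, 0.277, 0.218 and 0.199 log2 units in the same order, against 0.195 over all genes. The 5 variable neuroblast genes did not vary alike. Elavl3, an RNA-binding protein of neurons, was at 7.67, 7.32, 7.51 and 9.35 log2 CPM and was high in SVZ 4, although it shares exon sequence with another annotated gene. Igfbpl1 was high there too, at 6.19, 5.60, 5.77 and 6.85. Stmn4 (8.23, 8.29, 8.46 and 6.81), Dpysl5 (9.64, 9.60, 9.66 and 8.59) and Map1b (11.71, 11.54, 11.78 and 10.66), all of the microtubule cytoskeleton, were low there. Of the activated precursor genes, Hes6 was at 4.11, 5.78, 5.03 and 3.98 and the Notch ligand gene Dll1 at 3.89, 4.65, 4.29 and 3.48, both higher in SVZ 2 and SVZ 3.

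Genes of mitosis shared a small and regular shift. Of 45 G2 and mitosis genes, 37 were highest in SVZ 2, where 24.6% of all genes were highest, and none was lowest there. The list mean was 7.01, 7.30, 7.08 and 6.99 log2 CPM, and its range fell from 0.312 to 0.0908 without SVZ 2. The mitotic kinase gene Plk1 was at 6.67, 7.19, 6.95 and 6.30, the cyclin gene Ccnb2 at 6.05, 6.60, 6.41 and 6.14, and Ube2c, which helps to mark cyclins for destruction, at 7.12, 7.60, 7.52 and 7.09. These differences were each under 2-fold, and only Nek2 and Racgap1 of the 45 were variable. Of 36 S phase genes, 22 were highest in SVZ 2 as well. Among them were Dut, which keeps uracil out of DNA, at 4.02, 6.18, 5.23 and 4.08, and the helicase subunit gene Mcm6, at 7.04, 8.56, 7.67 and 6.96. Mki67 (8.83, 8.24, 8.22 and 8.70) was highest in SVZ 1 instead, and Top2a (10.51, 10.52, 10.38 and 10.50) was nearly level in SVZ 1, SVZ 2 and SVZ 4.

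Late cell cycle genes are controlled through the cell cycle homology region, or CHR, of the letters TTTGAA. These letters were found in 29 of 40 G2 and mitosis genes with a promoter (72.5%), against 14.3% of all genes with one. The promoters of Plk1 (chr7:122159185-122159484, plus strand), Cdc20 (chr4:118437294-118437593, minus strand) and Ccnb2 (chr9:70421505-70421804, minus strand) show the match in capitals close to the start, with another upstream in Ccnb2.
Plk1: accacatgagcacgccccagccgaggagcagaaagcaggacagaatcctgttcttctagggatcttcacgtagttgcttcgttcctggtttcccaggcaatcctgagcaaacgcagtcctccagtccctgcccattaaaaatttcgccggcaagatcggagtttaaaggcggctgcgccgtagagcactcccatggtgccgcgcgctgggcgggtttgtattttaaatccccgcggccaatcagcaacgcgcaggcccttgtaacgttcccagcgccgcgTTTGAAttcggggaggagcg
Cdc20: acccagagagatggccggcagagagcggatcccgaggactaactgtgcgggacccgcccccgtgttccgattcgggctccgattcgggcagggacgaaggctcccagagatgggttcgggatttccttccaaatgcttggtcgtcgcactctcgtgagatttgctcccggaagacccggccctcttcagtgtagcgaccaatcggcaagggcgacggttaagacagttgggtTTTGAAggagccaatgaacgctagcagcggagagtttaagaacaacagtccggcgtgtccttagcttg
Ccnb2: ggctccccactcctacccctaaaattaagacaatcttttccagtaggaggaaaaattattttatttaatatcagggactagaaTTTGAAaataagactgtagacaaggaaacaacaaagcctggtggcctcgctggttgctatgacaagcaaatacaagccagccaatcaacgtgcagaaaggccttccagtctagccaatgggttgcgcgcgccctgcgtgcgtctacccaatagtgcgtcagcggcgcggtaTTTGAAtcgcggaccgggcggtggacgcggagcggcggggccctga

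Genes of the protein synthesis and respiration machinery were slightly higher in SVZ 3. Of 82 cytosolic ribosomal protein genes, 72 were highest in SVZ 3 (20.1% of all genes were) and 50 were lowest in SVZ 4 (28.4% of all genes were). Their list means were 7.63, 7.68, 7.94 and 7.53 log2 CPM. Their share of reads was 2.35% to 2.92%. Of 77 nuclear genes of oxidative phosphorylation, 63 were highest in SVZ 3 and 50 lowest in SVZ 4. Genes with short transcripts in general also deviated upward in SVZ 2 and SVZ 3 and downward in SVZ 1 and SVZ 4. The part of transcript length in these counts was not tested. Rpl37, a protein of the large subunit, was at 8.10, 8.19, 8.71 and 7.998, and Rps27, of the small subunit, at 7.90, 8.05, 8.52 and 7.74. The single variable ribosomal protein gene departed from the rest: Rpl13 was at 6.77, 8.50, 8.34 and 5.76, a 6.68-fold range with SVZ 2 and SVZ 3 high. Its exons overlap the entries of Snord68 and Mir7079.

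The split of SVZ 2 and SVZ 3 from SVZ 1 and SVZ 4 went with transcript length and base composition. The median longest annotated transcript was 3635 bases over the 9399 genes, 2623 bases for the 108 genes higher in SVZ 2 and SVZ 3, and 5909 bases for the 92 genes higher in SVZ 1 and SVZ 4. Median GC content was 48.7%, 54.5% and 47.3% in the same order. Over all 9399 genes, those with the longest transcripts (the top 20%) had median deviations from the gene mean of 0.125, -0.155, -0.108 and 0.155 log2 units, and the shortest 20% had -0.0697, 0.0498, 0.0848 and -0.0532. With medians in bins of length and GC content subtracted, the 92 genes became 44, while the 108 genes of the opposite side became 89. Beside Rpl13, examples higher in SVZ 2 and SVZ 3 were the actin regulator gene Pfn1 (5.04, 7.43, 6.46 and 4.79), the mitochondrial ribosomal protein gene Mrps15 (3.26, 5.18, 4.90 and 2.85), and the nucleosome-binding protein gene Hmgn1 (6.17, 7.90, 7.33 and 6.10). The part of length and composition in these values was not tested.

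**Figure D5:**
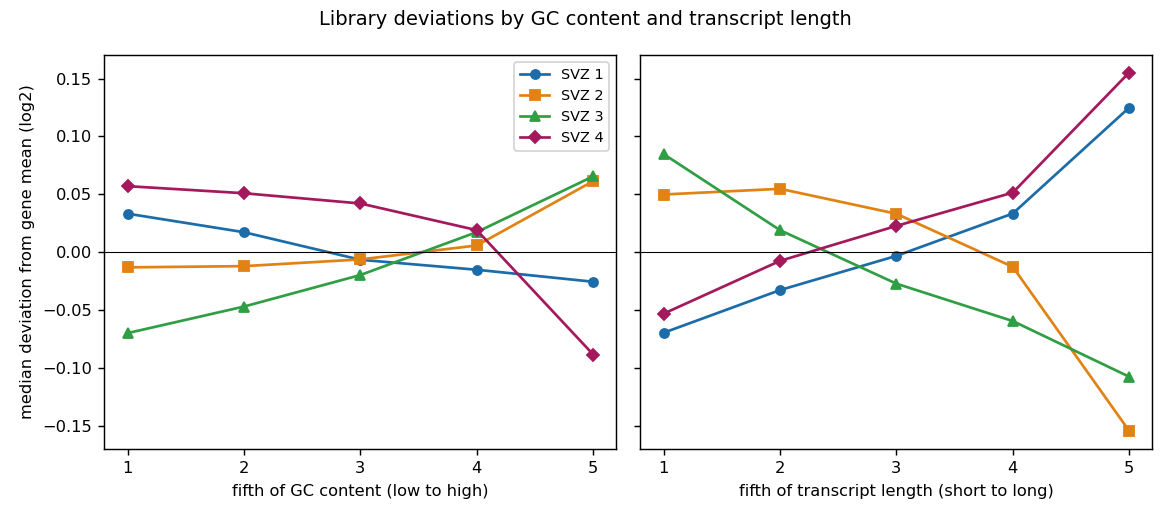
Median deviation of each SVZ library from the gene mean (log2 units) over 5 equal bins of the 9399 genes ordered by GC content (left) or by the longest annotated transcript (right). SVZ 1 and SVZ 4 rise with transcript length, to 0.125 and 0.155 in the longest bin, while SVZ 2 and SVZ 3 fall to -0.155 and -0.108.

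SVZ 4 differed from the rest in genes of many functions. Among those with SVZ 4 low, Nnat, a proteolipid gene of developing neurons that ranked 45 per kilobase, was at 9.85, 10.24, 10.42 and 8.06 log2 CPM, and Cavin1, a coat protein of caveolae, at 5.98, 5.50, 5.91 and 3.58. Linker histone genes belonged to this group: Hist1h1b was at 5.34, 5.64, 5.35 and 3.55, Hist1h1e at 5.18, 5.19, 5.07 and 3.34, and Hist1h1c at 5.38, 5.95, 5.77 and 4.16. The replacement histones H3f3b (11.36, 11.46, 11.38 and 11.29) and H2afz (9.59, 9.72, 9.75 and 9.62) were nearly level. The collagen chaperone gene Serpinh1 (5.86, 6.40, 6.84 and 4.77) and the co-chaperone gene Dnajb1 (6.12, 6.57, 6.81 and 5.33) were low in SVZ 4 as well. Among genes with SVZ 4 high, the endosomal GTPase gene Rab5c was at 4.45, 4.38, 4.38 and 6.19, the tetraspanin gene Cd151 at 4.07, 3.60, 3.66 and 6.02, and the vesicle fusion gene Ykt6 at 5.22, 5.90, 5.42 and 7.38. The 252 genes with SVZ 4 low had a median GC content of 54.0% and a median transcript of 2790 bases, and the 209 with SVZ 4 high had 49.7% and 4465 bases.

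The largest SD among the 9399 genes, 3.34 log2 units, was that of a sex-linked transcript. Xist, the RNA that coats the inactive X chromosome of female cells, had 2583, 1452, 28 and 5196 reads, or 6.34, 5.54, -0.13 and 7.32 log2 CPM. Genes of the Y chromosome were read in all 4 libraries: Ddx3y was at 5.66, 5.16, 6.59 and 5.06, Uty at 4.71, 3.76, 5.63 and 3.42, and Eif2s3y at 4.02, 3.87, 4.99 and 3.73. SVZ 3 was thus lowest for Xist and highest for the Y-linked genes, and SVZ 1, SVZ 2 and SVZ 4 carried both kinds of transcript. Kdm5d, also on the Y, was at 4.41, 3.64, 5.08 and 3.92. The labels do not say whether animals were pooled, and SVZ 3, the library set apart here, is also the one set apart by the immediate early genes; the part of sex in those values was not tested.

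A few further groups were small. Haemoglobin genes were higher in SVZ 1 and SVZ 3, with Hbb-bs at 4.89, 4.10, 4.97 and 3.90 log2 CPM and Hba-a1 at 4.17, 3.14, 3.94 and 2.61, though reads of the near-identical copies Hba-a2 and Hbb-bt cannot be assigned with certainty. Of 22 genes of striatal projection neurons, which lie next to the SVZ, 12 were highest in SVZ 2 (24.6% of all genes were) and 13 lowest in SVZ 1 (24.7% were). Of the 4 variable members, Gng7 (6.42, 7.87, 7.84 and 7.04) and Arpp21 (4.25, 5.99, 5.78 and 4.94) were higher in SVZ 2 and SVZ 3, Adcy5 (2.67, 4.44, 4.47 and 3.91) was low in SVZ 1, and Sez6 (7.60, 6.85, 7.16 and 7.88) was higher in SVZ 1 and SVZ 4. The opioid precursor gene Penk was at 1.13, 3.41, 3.01 and 1.69, and the dopamine receptor gene Drd2 at 1.36, 0.71, 0.95 and 1.48. The 6 striatal markers summed to 8.28 to 27.2 CPM. Of 25 cholesterol synthesis genes, 15 were highest in SVZ 2 (24.6% of all genes were), with Sqle at 7.60, 8.03, 7.69 and 7.49, and Mvk alone was variable (4.95, 5.60, 5.11 and 4.57).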

How the data were processed

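Nestin-GFP-positive cells of the SVZ were sorted, and RNA-seq libraries were made from poly-dT-primed, template-switched, amplified and sheared cDNA with an unstranded kit, per the labels' protocols. Per the submitters' processing notes, STAR, edgeR and mm10 (GRCm38) were used. No version, counting tool, annotation release or filter on low counts is stated in the labels. The deposited values are log2 CPM. From the values, they hold a prior count of 1 read scaled to the library. Whole reads were recovered for all values of the SVZ columns (tolerance 0.001), and the planned description was made on the deposited scale. Analysis used Python 3.11.15, numpy 2.4.6 and pandas 2.3.3, with merged exon lengths and GC content from GENCODE M21. Genes that averaged 3 log2 CPM or more entered statements on spread, and a 2-fold range defined a variable gene. Expected counting SDs assume Poisson reads and cover counting error only. The scripts were tested on simulated data.

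The gene lists (34 lists, 794 names besides whole families such as the ribosomal proteins) and the cell type markers were chosen with earlier results of these data known. Named genes were those with the highest level, the largest or smallest SD, or the largest gap in each library pattern, the 2 highest and 2 widest members of each list, and 20 fixed genes, a few of which are not reported here. Other list members, and Ykt6 and Hmgn1, are examples chosen after their values were seen. Promoters and the microRNA are from RefSeq (GRCm38.p6), and 10834 genes matched a promoter by symbol. Alternatives were another scaling, prior count, filter and fold, leaving out each library, and removal of length and GC medians. No sample was left out, and the dentate gyrus columns were not used.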

Additional observations from a re-analysis of the deposited data

Results flagged for a closer look

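In each group of 4 libraries, the gap of the highest or lowest library to its nearest neighbour was divided by the whole range and compared with Dixon's 95% critical value for 4 samples. Chance flags about 1 in 20 groups, and 484 of the 9399 genes that averaged 3 log2 CPM or more passed (5.15%), so a single flag carries little weight. Of 205 named genes 19 passed, of 34 list means 4, and of 8 library measures 1. Many of the named genes were chosen for a large gap or a wide range between these libraries. Their share therefore cannot be set against that of all genes.

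The number of genes with at least 1 read had a gap of 0.881, with SVZ 1 high. Among the lists, the S phase mean had a gap of 0.864 with SVZ 2 high, the choroid plexus mean 0.888 with SVZ 4 low, the endothelial mean 0.942 with SVZ 1 high and the immediate early mean 0.916 with SVZ 3 high.

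SVZ 4 lay apart in 9 of the named genes. It was high for the actin gene Actb (0.979), the GABA-synthesising enzyme gene Gad1 (0.8292), the GTPase gene Rab5c (0.959) and mt-Cytb (0.832). It was low for the linker histone genes Hist1h1b (0.855) and Hist1h1e (0.935), for Stmn4 (0.861), for the myosin light chain gene Myl9 (0.893, at 4.42, 4.50, 4.51 and 3.66 log2 CPM), and for the choroid plexus gene Sostdc1 (0.872, at 1.34, 1.29, 1.59 and -0.78).

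SVZ 1 lay apart in 6. It was high for Itm2a (0.923), Myh11 (0.976) and Sox2 (0.847), and low for Trem2 (0.853), the prostaglandin synthase gene Ptgds (0.833, at 3.40, 5.21, 5.35 and 5.58) and the ribosomal protein gene Rpl4 (0.873). SVZ 2 was high for the RNA-binding protein gene Strap (0.833) and low for the antisense RNA Kcnq1ot1 (0.865). SVZ 3 was low for the helicase subunit gene Mcm7 (0.88) and for the glutamate transporter gene Slc17a6 (0.854).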

How the results depend on the processing

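No paired analysis was possible because 1 group was described and no result comes from a test, so the replicate numbers pair nothing. The count of variable genes, 948, became 3369 with no filter on the mean and 295 among genes that averaged 5 log2 CPM or more; a fold of 1.5 gave 3222 and a fold of 4 gave 76. With no filter, the patterns with SVZ 1, 2, 3 or 4 high held 238, 137, 149 and 509 genes, and those with it low 524, 243, 191 and 618. The splits held 258 (SVZ 2 and 3 over 1 and 4), 209 (1 and 4 over 2 and 3), 86 (1 and 3 over 2 and 4), 85 (3 and 4 over 1 and 2), 76 (2 and 4 over 1 and 3) and 46 (1 and 2 over 3 and 4). Among genes that averaged 5 log2 CPM or more, the same patterns in the same order held 2, 12, 6 and 53 high, 42, 8, 1 and 95 low, and 48, 28, 0, 0, 0 and 0. Fewer or more genes entered each count by construction. With length and GC medians subtracted, an alternative chosen after seeing the data, SVZ 1 and 4 over 2 and 3 held 44 genes, 2 and 4 over 1 and 3 held 4, SVZ 2 low 19 and SVZ 3 low 5; the cause was not tested. Median-of-ratios scaling moved the libraries by 0.012, 0.004, 0.014 and -0.030 log2 units and changed no list range beyond its spread, while 6 of 205 named genes moved.

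Leaving out 1 library at a time gave 303 (without SVZ 4) to 781 variable genes. The range of the list mean ran from 0.0908 (without SVZ 2) to 0.312 for G2 and mitosis, from 0.0942 (without SVZ 2) to 0.231 for neuroblasts, from 0.445 to 1.28 for ependyma, from 0.0936 to 1.63 for endothelium, from 0.806 to 2.16 for microglia, from 0.323 to 0.853 for oligodendrocyte precursors, from 0.496 to 1.15 for myelinating cells and from 0.0659 to 0.788 for immediate early genes. The endothelial range was 0.748 over members that averaged 3 log2 CPM or more. Of the 100 genes highest per kilobase, 64 were also among the 100 most read and 95 to 98 stayed without 1 library. The 10 most read genes took 8.21% to 8.43% of reads and the 100 most read 22.8% to 23.0%. At this depth 3 reads equal -3.00 to -3.04 log2 CPM, which limits low genes such as Cldn5.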
